A study of Mus musculus with 26 samples.

Results

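An immunoprecipitate made from wild-type mouse brown fat with nonspecific IgG was compared with wild-type total RNA, to describe which mRNAs were recovered above or below their share of the starting RNA without an antibody against an RNA-binding protein. The genes compared were those with at least 20 counts in the IgG library (26) and in both total RNA libraries (15 and 20), with 1 transcript row kept per gene symbol, the row with the highest summed count. Of 9375 named genes in the deposited table, 5403 met this rule. All 3 libraries came from wild-type male mice of 10 weeks on a C57Bl/6J background, littermates of Imp2-/- animals from heterozygous matings, fed normal chow and held overnight at 4 °C before brown adipose tissue was taken. The same table holds 1 immunoprecipitate of such mice made with an antibody to IMP2 (library 25). A separate table of the series, called the knockout table here, holds libraries of total RNA and of RNA precipitated with the IMP2 antibody, from wild-type and from Imp2-/- mice, with 2 libraries in each of 4 groups and no library in common with the IgG comparison. The labels do not say which mice, or how many, gave each library, or match an immunoprecipitate to a total RNA sample.

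In RNA immunoprecipitation an antibody fixed to beads pulls a protein out of a tissue lysate together with the RNA attached to it. Some RNA comes down without that protein, by adhering to beads, to vessel walls or to immunoglobulin, or by being part of large assemblies, and an immunoprecipitate made with IgG of no defined target measures this fraction. IMP2, the product of Igf2bp2, binds selected mRNAs in the cytoplasm and influences how long they last and how well they are translated. Sequencing counts give shares of a library, so a gain of some mRNAs lowers the share of the others.

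Counts kept in genes summed to 1466428 and 2701085 in total RNA, 3749836 in the IgG library and 1321668 in the one made with the IMP2 antibody. The IgG library was thus the deepest, and the count minimum removed mainly genes that were sparse in total RNA. Of the genes left out, 2784 fell short in total RNA alone and had a median log2 ratio of IgG to total RNA of 0.41, whereas 35 fell short in the IgG library alone, with a median of -1.72, and 1153 fell short in both. Genes whose lowest count was exactly 20 had a median ratio of 0.19, beside 0.11 for the 150 genes whose lowest count was 19. The 11 brown adipocyte markers were all above the minimum and summed to 21573 and 26202.5 CPM (read counts scaled to a common library size) in total RNA and 22342.5 CPM in the IgG library, and the labelled tissue was therefore seen in all 3 libraries. Igf2bp2 was not among the 5403 genes, with 20 and 16 counts in total RNA and 16 in the IgG library.

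Ratios between the IgG library and total RNA were small for most genes. On the log2 scale of CPM (scaled by trimmed means, TMM, with a prior count of 2), the IgG library minus the mean of the total RNA libraries had a median of -0.09 over the 5403 genes, with quartiles of -0.54 and 0.33, a standard deviation of 0.64 and a range from -2.94 to 2.01. The total RNA libraries differed from each other with a standard deviation of 0.54. The IgG library was above both total RNA libraries for 1746 genes (32.3%) and below both for 2381 genes (44.1%). It was at least 2-fold above both for 73 genes (1.35%) and at least 2-fold below both for 297 genes (5.5%). Between the total RNA libraries themselves, 156 genes (2.89%) were at least 2-fold higher in library 20 and 221 (4.09%) at least 2-fold lower. Against library 20 alone the IgG library was 2-fold higher for 192 genes (3.55%) and lower for 470 (8.7%), and against library 15 alone for 289 (5.35%) and 661 (12.2%). The counts above or below both libraries used CPM without the prior count. Those for single pairs of libraries used log2 CPM with the prior count, which makes ratios smaller, so the 2 kinds of count are not on one measure.

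The quasi-likelihood test of edgeR, fitted to all 4 libraries of the table and adjusted over 8963 genes by the Benjamini-Hochberg method, called 43 genes higher in the IgG library (0.48%) and 137 lower (1.53%) at an adjusted p under 0.05. Among the 5403 genes, 24 were called higher (0.444%) and 126 lower (2.33%). The model had 1 residual degree of freedom, and the lone IgG library was assumed to vary like total RNA, so p-values measure the spread between the total RNA libraries, which may be technical. The balance of directions depended on the scaling: 23.9% of calls were higher with TMM scaling, 34.7% with upper-quartile scaling (59 higher and 111 lower) and 51.8% with library size alone (95 of the calls were lower), which moved the median of all ratios by 0.16. DESeq2 called 3 genes higher and 41 lower over all genes tested, and each of these was also called by edgeR in the same direction.

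**Figure D1:**
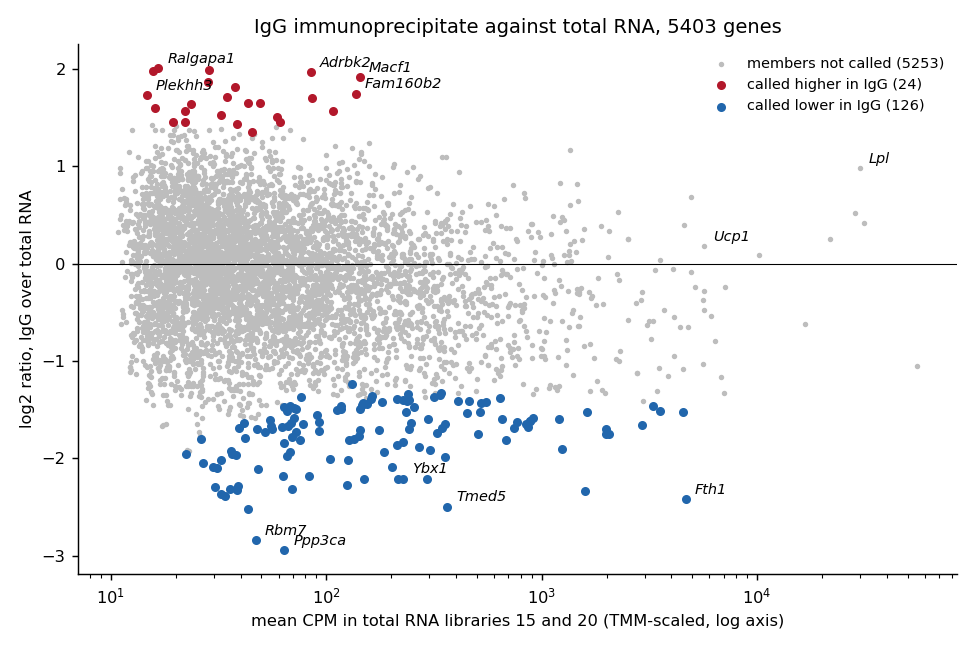
Log2 ratio of the IgG library to total RNA (vertical axis) against the mean CPM of both total RNA libraries (horizontal log axis) for 5403 genes, with the 24 genes called higher by edgeR in red and the 126 called lower in blue. Called losses reach a mean of 4658 CPM, that of Fth1, whereas the genes called higher reach 143 CPM, that of Macf1, and no gene was called among the 10 most abundant.

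Genes called higher included several mRNAs from the list of giant proteins. Macf1, which encodes a giant protein that links actin filaments to microtubules, was at 142 and 145 CPM in total RNA and at 541 CPM in the IgG library (95% Poisson interval 519 to 564, which covers counting error only). Its edgeR log2 ratio was 1.92 ± 0.38 (standard error, adjusted p = 0.000381). The IgG value lay far outside the range of the total RNA values, which differed by little. Ralgapa1, a subunit of a complex that switches off Ral GTPases, was at 16.2 and 17.0 CPM in total RNA and at 69.3 CPM in the IgG library, an edgeR log2 ratio of 2.05 ± 0.45 (adjusted p = 0.00183). Mll2, a histone H3 methyltransferase listed as Kmt2d in RefSeq, was at 26.8 and 30.3 CPM in total RNA and at 115 CPM in the IgG library, with an edgeR log2 ratio of 2.01 ± 0.41 (adjusted p = 0.000708). Syne2, a nuclear envelope protein that tethers nuclei to the cytoskeleton, was at 16.9 and 14.4 CPM against 63.7 CPM. For each of these 4 genes the IgG library stood apart from a close pair of total RNA libraries.

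The other genes with the largest gains were, like Ralgapa1, outside the giant list. Adrbk2, a kinase that desensitizes G-protein-coupled receptors and is named Grk3 in RefSeq, was at 88.0 and 81.1 CPM in total RNA and at 332 CPM in the IgG library, with an edgeR log2 ratio of 1.98 ± 0.38 (adjusted p = 0.000381). Myo5a, a motor that carries cargo along actin, was at 31.0 and 25.4 CPM against 104.5 CPM. Pcnx was at 44.4 and 31.1 CPM against 133 CPM. Fam160b2 was at 102.1 and 172 CPM against 445 CPM, so the total RNA libraries differed more for it than for the genes above. Plekhh3 was at 16.2 and 13.3 CPM against 50.5 CPM. Kcna2, a voltage-gated potassium channel, was at 29.6 and 39.8 CPM against 114 CPM. The edgeR log2 ratios of these last 5 genes ranged from 1.69 to 1.90 and their adjusted p-values from 0.00183 to 0.0104. DESeq2 did not call Myo5a, Pcnx, Fam160b2 or Kcna2, with adjusted p-values of 0.0924, 0.0924, 0.0592 and 0.143.

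Among the genes compared, losses were larger than gains at the extreme and mixed many functions. The count minimum bears on this, since it removed mainly genes that were sparse in total RNA. Of the genes left out, 19 were called higher and 11 lower. Their log2 ratios reached 3.16 for Vps13d and -3.09 for Brp44l. Ppp3ca, the catalytic subunit of the phosphatase calcineurin, was at 47.9 and 79.9 CPM in total RNA and at 7.32 CPM in the IgG library (Poisson interval 4.94 to 10.5), an edgeR log2 ratio of -3.13 ± 0.53 (adjusted p = 3.51e-05). Tmed5, a cargo receptor of the early secretory pathway, was at 465 and 264 CPM in total RNA and at 61.5 CPM in the IgG library, an edgeR log2 ratio of -2.56 ± 0.45 (adjusted p = 6.08e-05). Fth1, the heavy chain of the iron store ferritin, was at 2919.6 and 6396 CPM in total RNA and at 806 CPM in the IgG library, an edgeR log2 ratio of -2.53 ± 0.48 (adjusted p = 0.000307). The total RNA libraries were more than 2-fold apart for Fth1, and the IgG library lay below both.

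Rbm7, an RNA-binding adaptor of the nuclear exosome, was at 44.4 and 50.0 CPM against 5.86 CPM in the IgG library. Chmp2b, a subunit of the ESCRT membrane-remodelling machinery, was at 62.7 and 75.8 CPM against 13.2 CPM. Serinc1, a multipass membrane protein, was at 26.0 and 50.8 CPM against 6.59 CPM. Tmco1, an endoplasmic reticulum channel that releases calcium, was at 21.1 and 47.0 CPM against 5.37 CPM, and Dtymk, a kinase of thymidine nucleotide synthesis, was at 35.9 and 29.2 CPM against 5.61 CPM. These 5 genes had edgeR log2 ratios between -3.00 and -2.39 with adjusted p-values from 0.000307 to 0.00441, and rested on 22 to 54 counts in the IgG library. The call of Dtymk was lost when all rows of a symbol were summed (adjusted p = 0.0528).

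**Figure D2:**
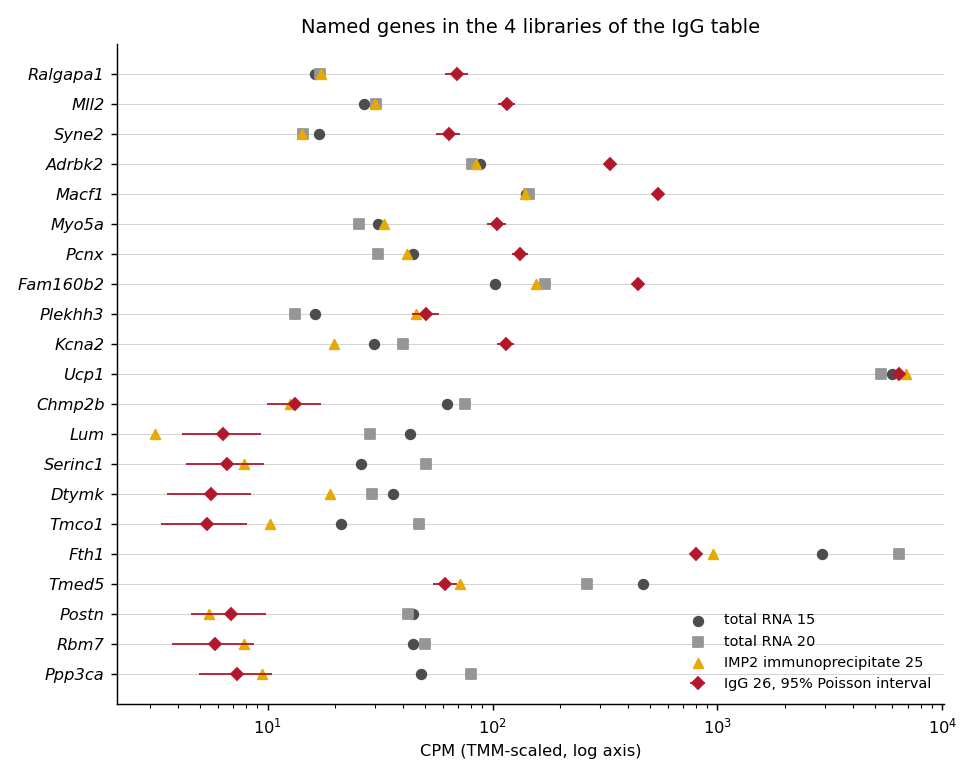
CPM on a log axis of the 10 genes with the largest and the 10 with the smallest ratios among those called, and of Ucp1, in total RNA 15 (circles), total RNA 20 (squares), the IMP2 immunoprecipitate (triangles) and the IgG immunoprecipitate (diamonds with 95% Poisson intervals). For most of the genes gained in IgG the IMP2 immunoprecipitate sits with total RNA, as for Macf1 at 139 CPM, and for most of the genes lost it sits beside IgG, as for Tmed5 at 71.5 CPM.

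The gene groups below are described by the number of members called and by the median log2 ratio, beside 0.444% called higher, 2.33% called lower and a median of -0.09 for all 5403 genes. Of 49 listed mRNAs of giant proteins, 29 passed the count minimum, and these are not all members of the list. Called higher were 6 of the 29 (20.7%): Macf1, Mll2, Syne2, Dst, Plec and Herc2. Dst and Plec encode cytoskeletal linkers, and Herc2 encodes a giant ubiquitin ligase. DESeq2 called 2 of the 29 and limma-voom 6. The median log2 ratio was 0.98, with 0.89 over library 15 alone and 0.99 over library 20 alone, and the IgG library was above both total RNA libraries for 23 of the 29. Ahnak, a scaffold at the plasma membrane, was at 467 and 355 CPM in total RNA and 780 CPM in the IgG library, and Ubr4, a ubiquitin ligase, was at 212 and 199 CPM against 419 CPM, and edgeR called neither (adjusted p = 0.218 and 0.141). Members with the lowest ratios were Neb, the ruler of muscle thin filaments, at -1.26, Flna, an actin crosslinker, at -0.57 and the basement membrane proteoglycan Hspg2 at -0.10.

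**Figure D3:**
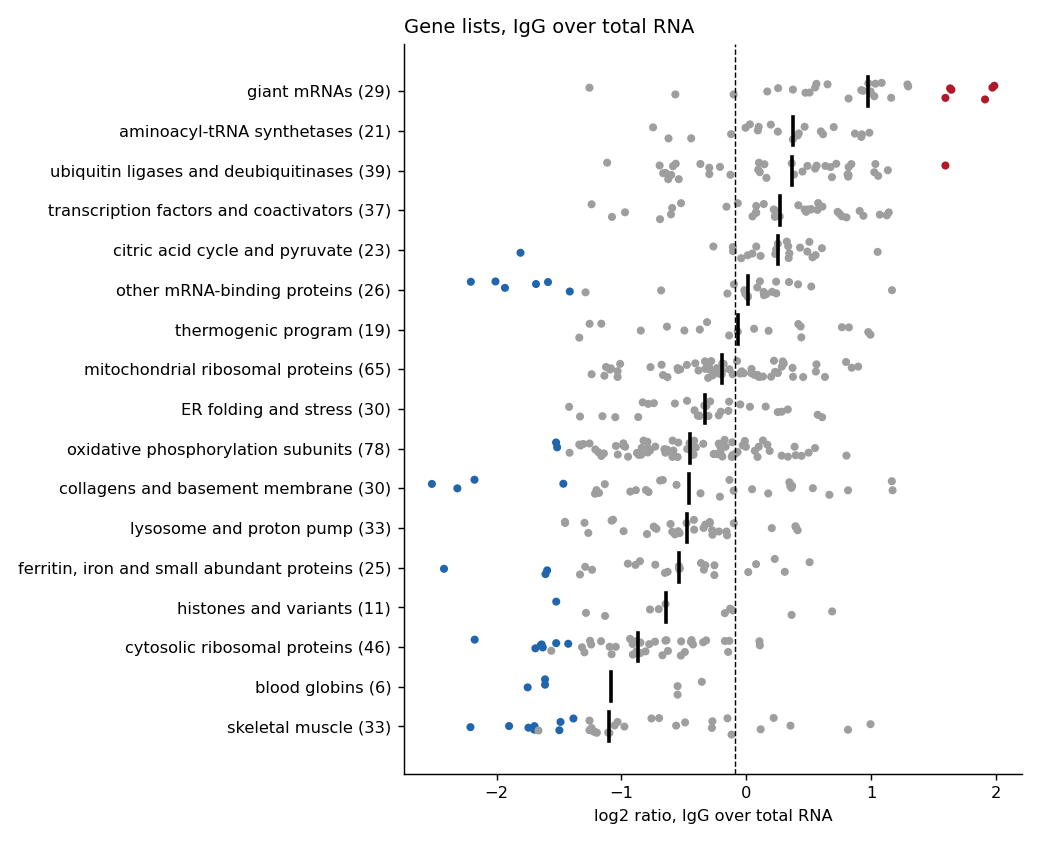
Log2 ratios of IgG to total RNA (horizontal axis) for the members of 17 gene lists that passed the count minimum (number in brackets), with genes called higher by edgeR in red, genes called lower in blue, list medians as black bars and the median of all 5403 genes as a dashed line. Giant mRNAs lie furthest to the right with a median of 0.98, and skeletal muscle genes (-1.10), blood globins (-1.08) and cytosolic ribosomal proteins (-0.87) lie furthest to the left.

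Cytosolic ribosomal proteins, the protein parts of the ribosome, mostly lay below total RNA in the IgG library. Of 63 listed, 46 passed the count minimum, 7 were called lower (15.2%) and the IgG library was below both total RNA libraries for 41. Rps20 was at 660 and 832 CPM in total RNA and at 229 CPM in the IgG library, an edgeR log2 ratio of -1.70 ± 0.43 (adjusted p = 0.0101). Rps27l, a ribosomal protein paralog, was at 75.3 and 90.2 CPM against 17.6 CPM, with an edgeR log2 ratio of -2.24 ± 0.48 (adjusted p = 0.00125). Rps21, Rplp0, Rpl41, Rplp1 and Rpl32 were the other 5 called. The list median was -0.87, and single genes ranged up to 0.11 for Rpl15 and Rps3 and -0.14 for Rpl14, which were within the range of the total RNA libraries or close to it. Reads of ribosomal protein genes can also match processed pseudogenes, and the sources used here do not say how such reads were counted.

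Ribosomal protein mRNAs are known for a terminal oligopyrimidine tract, a C followed by pyrimidines at the transcription start, through which their translation is controlled. RefSeq start sites were searched for a C followed by at least 4 pyrimidines, from 10 bases before to 20 bases after the start. The strand that reads like the mRNA was used. The windows below are from GRCm38.p6 and run 5′ to 3′ on that strand. They are shown to set ribosomal protein genes with high and low IgG ratios beside translation factors and giant mRNAs, with the longest match in capitals.
Rps21 (chr2:180257369-180257398, plus strand): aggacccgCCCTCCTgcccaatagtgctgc
Rps27l (chr9:66946076-66946105, plus strand): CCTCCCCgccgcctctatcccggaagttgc
Rpl14 (chr9:120571507-120571536, plus strand): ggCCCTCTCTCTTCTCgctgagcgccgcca
Rpl15 (chr14:18270967-18270996, minus strand): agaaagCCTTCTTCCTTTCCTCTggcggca
Rps3 (chr7:99483690-99483719, minus strand): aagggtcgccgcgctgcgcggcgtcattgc
Eef1a1 (chr9:78481705-78481734, minus strand): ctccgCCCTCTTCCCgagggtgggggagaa
Gnb2l1 (chr11:48800350-48800379, plus strand): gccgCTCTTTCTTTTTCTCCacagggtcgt
Mll2 (chr15:98871186-98871215, minus strand): ggatttttgCTTTTTTTTTTTTTTTTTTTT
Syne2 (chr12:75818308-75818337, plus strand): tgtagCCTCCagtccagagcggagcgcgct
Macf1 (chr4:123684341-123684370, minus strand): acaaaaaactgaggttcaagtaggtaaaga

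A match was found in 20 of the 35 ribosomal protein genes with a promoter entry (57.1%), beside 35.8% of 27025 RefSeq promoters and 37.1% of the 4368 genes compared here that had one. Among the ribosomal protein genes the median log2 ratio was -0.84 with a match and -0.88 without. Both groups were about equally low, but the search could not tell mRNAs with a tract from those without. It matched 35.8% of all promoters and accepted runs that end before the start site, as in Rps27l. A relation of the tract to the ratio was therefore not tested. The longest matches shown had ratios in both directions: 21 bases in Mll2 at 1.99, 17 in Rpl15 at 0.11, 16 in Gnb2l1, which encodes the ribosome-bound scaffold Rack1, at -0.94 and 14 in Rpl14 at -0.14. Among the other 4333 genes the medians were -0.07 with and -0.07 without a match. Eef1a1, which delivers aminoacyl-tRNA to the ribosome, was at 523 and 678 CPM in total RNA and 260 CPM in the IgG library, and edgeR did not call it (adjusted p = 0.105).

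Other genes of gene expression went in several directions. Among 26 listed mRNA-binding proteins other than the IMP family, 6 were called lower (23.1%) while the list median was 0.01. These 6 were Ybx1, G3bp2, Elavl1, Csda, Ddx6 and Pabpc4. Ybx1, which packages mRNAs, was at 146 and 309 CPM in total RNA and at 45.4 CPM in the IgG library, an edgeR log2 ratio of -2.33 ± 0.45 (adjusted p = 0.000381). Elavl1, a stabilizer of AU-rich mRNAs, was at 25.1 CPM in the IgG library with an edgeR log2 ratio of -2.04 ± 0.46 (adjusted p = 0.00279), and G3bp2, a stress granule protein, was at 190 and 180 CPM against 47.8 CPM. Over the whole list, 12 ratios were negative and 14 positive, with a lower quartile of -1.14 and an upper quartile of 0.19, up to Fxr2 at 1.17. Among translation initiation factors, Eif5b, the GTPase that joins ribosomal subunits, was called higher, at 71.8 and 50.8 CPM in total RNA and 166 CPM in the IgG library (edgeR log2 ratio 1.45 ± 0.40, adjusted p = 0.0195). Aminoacyl-tRNA synthetases, which charge tRNAs, had a median of 0.37 over 21 genes, ubiquitin ligases and deubiquitinases 0.36 over 39, and transcription factors and coactivators 0.27 over 37. Among 11 histones and variants the median was -0.65 and H2afj was called lower.

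Genes of mitochondrial energy metabolism lay on both sides of total RNA. Among 78 subunits of the respiratory chain and ATP synthase, the IgG library was below both total RNA libraries for 50, the median was -0.45, and 2 were called lower (2.56%, near the share over all genes). These were Atp5e, a small subunit of the ATP synthase stalk, at 2942 and 6139 CPM in total RNA and 1477 CPM in the IgG library (edgeR adjusted p = 0.0258), and Ndufa3, an accessory subunit of complex I, at 4288 and 2765 CPM against 1204 CPM (edgeR adjusted p = 0.0351). DESeq2 called 0 of the 78 and limma-voom 4 lower, with 21 lower at an unadjusted edgeR p under 0.05. The total RNA libraries differed for these genes, with a median log2 ratio of library 20 to library 15 of 0.50. The highest ratios were those of the complex I subunits Ndufv1, which binds NADH, at 0.80, Ndufa10 at 0.55 and Ndufs7 at 0.50, and none of these 3 was called by edgeR. Genes of the citric acid cycle and pyruvate metabolism had a median of 0.25, and the IgG library was above both total RNA libraries for 16 of 23. Idh2, the NADP-dependent isocitrate dehydrogenase of mitochondria, was at 91.5 and 209 CPM against 288 CPM and was not called (edgeR adjusted p = 0.207), while Idh3a, a subunit of the NAD-dependent enzyme, was called lower at 582 and 785 CPM against 192 CPM (edgeR log2 ratio -1.83 ± 0.44, adjusted p = 0.0049). Aldh2, which oxidizes acetaldehyde in mitochondria, was called higher at 62.7 and 108.3 CPM against 269 CPM (edgeR log2 ratio 1.64 ± 0.38, adjusted p = 0.0041).

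Thermogenic genes lay on both sides of total RNA. Ucp1, the uncoupling protein of brown fat mitochondria, was at 5996 and 5321 CPM in total RNA and at 6395 CPM in the IgG library. Its edgeR log2 ratio was 0.18 ± 0.43 (adjusted p = 0.896), so a difference was not detectable with this spread. Of 19 thermogenic genes, edgeR and DESeq2 called 0, limma-voom called 1 lower, and 2 were higher and 4 lower at an unadjusted edgeR p under 0.05, with a median of -0.07. Ratios ran from -1.34 for Cox7a1 and -1.16 for Cox8b, subunits of cytochrome c oxidase enriched in brown fat and muscle, to 0.98 for Prdm16 and 0.99 for Ppargc1b, regulators of brown fat transcription. Lpl, which releases fatty acids from lipoproteins, was at 34398 and 25383 CPM in total RNA and 58256 CPM in the IgG library, above both, with an edgeR log2 ratio of 0.96 ± 0.44 that did not pass (adjusted p = 0.284).

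Genes of the matrix, the lysosome and the secretory pathway had medians below that of all genes. Among 30 genes of collagens and basement membrane the median was -0.46 and 4 were called lower (13.3%): Postn, Dcn, Lum and Fbn1. DESeq2 called 0 of these 30, limma-voom called 4 lower, and 10 were lower at an unadjusted edgeR p under 0.05. Postn, a matricellular protein, was at 44.4 and 42.0 CPM in total RNA and 6.83 CPM in the IgG library, with an edgeR log2 ratio of -2.65 ± 0.57 (adjusted p = 0.00133). The small proteoglycan Dcn was at 70.4 and 55.7 CPM against 13.2 CPM, and Lum, a related proteoglycan, was at 42.9 and 28.4 CPM against 6.35 CPM. The laminin chains in the list went the other way and were not called, with Lamb1 at 1.17 and Lama5 at 0.82. The 8 fibroblast and matrix markers, which include Dcn, Lum and Fbn1, summed to 1417 and 1135 CPM in total RNA. They summed to 851 CPM in the IMP2 immunoprecipitate and 821 CPM in the IgG library. Fewer such cells in the tissue piece and lower recovery cannot be told apart, and neither was tested. Lysosomal genes had a median of -0.48, with the IgG library below both total RNA libraries for 26 of 33, and genes of protein folding in the endoplasmic reticulum had a median of -0.33, with 18 of 30 below both, beside 44.1% below both over all genes. In these 2 lists edgeR and DESeq2 called 0 genes, limma-voom called 1 and 2 lower, and 8 and 5 were lower at an unadjusted edgeR p under 0.05. Among 25 genes of iron handling and small abundant proteins, 3 were called lower (12.0%), namely Fth1, Myeov2 and the actin-binding peptide Tmsb10, and the median was -0.54.

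Skeletal muscle and red blood cell genes also lay lower, beside a difference between the total RNA libraries. Of 33 skeletal muscle genes, 8 were called lower (24.2%) and the median was -1.10, and DESeq2 called 3. Tnnt3, a fast muscle troponin, was at 1575 and 915 CPM in total RNA and 321 CPM in the IgG library, and Acta1, skeletal actin, was at 2752 and 1209.5 CPM against 562 CPM. The 10 muscle markers, none of them at 0, summed to 14188 and 7734 CPM in total RNA, 6843 CPM in the IMP2 immunoprecipitate and 5268 CPM in the IgG library, and the median log2 ratio of library 20 to library 15 over the muscle list was -0.97. The muscle content of the tissue piece behind the IgG library is unknown, and its part in these ratios was not tested. Fewer muscle cells, less RNA per cell and lower recovery in the precipitation cannot be told apart. The 8 muscle genes listed in the knockout table had median log2 ratios to total RNA of -0.64 in the knockout immunoprecipitate and -0.41 in the wild-type one. For the knockout immunoprecipitate edgeR called 0 of these 8 lower. Ttn and Myh7, which encode the giant sarcomere spring and slow myosin, were at 385 and 175 CPM in the IgG library, where total RNA held 268 and 139 CPM of Ttn and 142 and 69.7 CPM of Myh7, so each lay above both total RNA libraries although the list as a whole was low. The 6 red blood cell genes summed to 4682 and 3305 CPM in total RNA and 1306 CPM in the IgG library. Their median log2 ratio was -1.08, and 3 of these 6 were called lower (50.0%): Hba-a1 and Hba-a2, which have identical counts, and Hbb-bs. In the knockout table edgeR called the same 3 lower in the knockout immunoprecipitate, with a median of -1.16. C1qa, a subunit of the complement protein that binds IgG, was called lower at 70.4 and 74.2 CPM against 25.1 CPM (edgeR adjusted p = 0.0445). It was the 1 call among 5 Fc receptor and C1q genes, whose median log2 ratio was -0.76. The IgG library was below both total RNA libraries for 4 of the 5. The exception was C1qb, another subunit of the same protein, at 16.2 and 12.1 CPM against 19.8 CPM. It lay above both and was not called (edgeR adjusted p = 0.718).

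RNAs that do not encode proteins numbered 81, with a median log2 ratio of -0.31 beside -0.09 for 5316 protein-coding genes. The nuclear RNAs Neat1 and Malat1 were at 2545 and 658 CPM in the IgG library, where total RNA held 2453 and 1657 CPM of Neat1 and 1125 and 361 CPM of Malat1. Neat1 lay just above both total RNA libraries, Malat1 between them. Rpph1, the RNA of RNase P, was at 205 and 99.2 CPM against 59.6 CPM and was not called (edgeR adjusted p = 0.0709).

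Gains and losses differed in gene span, the length of the gene with introns, with a median of 90.6 kb for the 24 genes called higher, 15.4 kb for the 126 called lower and 18.7 kb for all genes. The genes were split into 5 equal bins of span. Medians by bin were -0.28, -0.08, -0.07, -0.06 and 0.04 from the narrowest bin, up to 6.69 kb, to the widest, from 51.2 kb. The rise depended on the total RNA library: over library 15 alone the medians were -0.23, -0.09, -0.10, -0.12 and -0.07, and over library 20 alone -0.30, -0.09, -0.03, -0.01 and 0.13. The ratio of library 20 to library 15 itself ran from 0.03 to -0.17 across the bins. Of the 73 genes at least 2-fold above both total RNA libraries, 46 were in the widest bin, and of the 24 called higher, 16 were. The widest bin also held 47 genes at least 2-fold below both and 15 called lower. Of the 297 genes at least 2-fold below both, 89 were in the narrowest bin, with 43 of the 126 called lower. That bin held 5 genes at least 2-fold above both and 0 called higher. Across 5397 genes, which are not independent replicates, the ratio had a Pearson r of 0.16 and a Spearman rho of 0.15 with log2 span. Span includes introns, and the mRNA length itself was not used here. The level in total RNA went with the ratio in the opposite direction, with medians of 0.03 in the lowest of 5 bins of level and -0.31 in the highest (Pearson r -0.21, Spearman rho -0.19), and both measures share the total RNA counts. Among genes above the median level, medians ran from -0.45 in the narrowest to -0.08 in the widest bin of span, and among the other genes they were -0.06, 0.06, 0.02, 0.07 and 0.09.

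**Figure D4:**
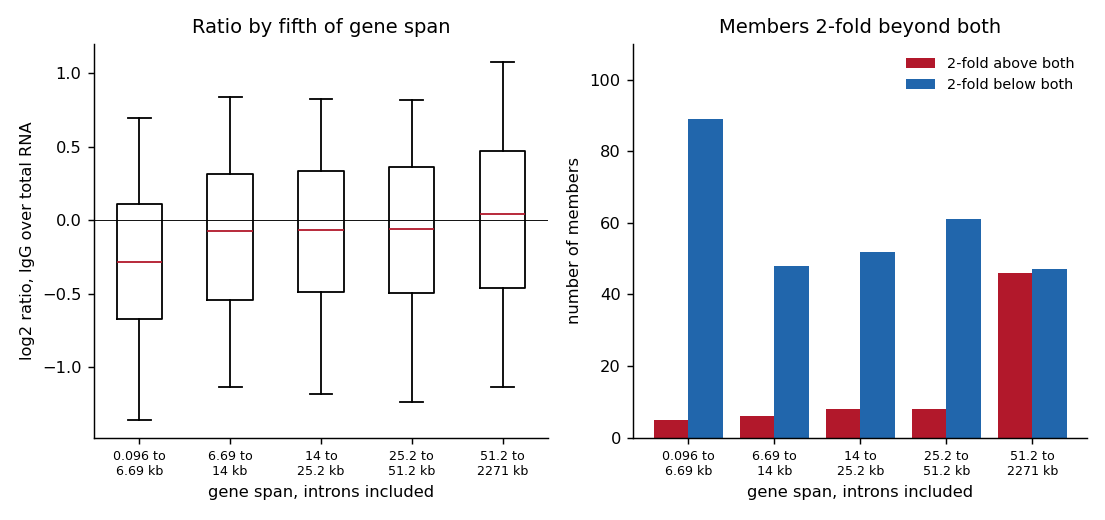
Left, log2 ratio of IgG to total RNA by bin of gene span (boxes for quartiles, red lines for medians, whiskers to the 5th and 95th percentiles) for 5397 genes. Right, number of genes at least 2-fold above both (red) or below both (blue) total RNA libraries in each bin. The widest bin held 46 of 73 gains and 47 losses, and the narrowest 89 of 297 losses and 5 gains.

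The IMP2 immunoprecipitate of the same table showed where the losses and gains stood in another precipitation, although both ratios share the total RNA libraries and their likeness is not counted as a result. The 126 genes called lower in IgG had a median log2 ratio to total RNA of -1.69 in the IgG library and -1.25 in the IMP2 immunoprecipitate, and the 24 called higher had 1.65 and 0.21. The giant mRNAs had medians of 0.98 and -0.08, and the cytosolic ribosomal proteins -0.87 and -0.63. The direct edgeR test of IgG against the IMP2 immunoprecipitate, added after the data were seen, called 13 genes higher in IgG (0.145%) and 5 lower (0.0558%). Among the 24 genes called higher against total RNA, 4 were called higher in this test too, namely Macf1, Adrbk2, Eif5b and Kcna2, and among the 126 called lower 1 was called, Cish, at 37.7 CPM in the IMP2 immunoprecipitate and 5.61 CPM in IgG. The same IgG library enters both tests, so a call in the second is not separate support for the first. Plekhh3, at 45.6 CPM in the IMP2 immunoprecipitate and 50.5 CPM in IgG, was high in both libraries. Lpl showed a large gap, at 7937 CPM in the IMP2 immunoprecipitate against 58256 CPM in IgG (edgeR log2 ratio 2.88 ± 0.57, adjusted p = 0.000733). Mospd3 showed the opposite, at 182 against 18.3 CPM (edgeR log2 ratio -3.31 ± 0.53, adjusted p = 3.74e-06). Against total RNA, the edgeR log2 ratio of Mospd3 was -1.03 ± 0.46 in IgG. In the knockout table it was 1.29 ± 0.18 in the knockout immunoprecipitate and 1.06 ± 0.20 in the wild-type one. Mospd3 was thus also gained with the IMP2 antibody in tissue without IMP2. The genes named only in this test were chosen after their values were seen.

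The knockout table allowed a comparison with no shared library, since an IMP2 antibody has no IMP2 to bind in Imp2-/- tissue. That table lists a selected set of transcripts, 1189 of which matched genes compared here, and edgeR called 126 of them higher (10.6%) and 187 lower (15.7%) in the knockout immunoprecipitate against knockout total RNA. Library-size scaling turned this split to 246 higher and 145 lower. The wild-type immunoprecipitate of that table had 118 called higher (9.92%) and 148 lower (12.4%) against wild-type total RNA. Across the 1189 genes the IgG ratio and the knockout ratio had a Pearson r of 0.70 and a Spearman rho of 0.67, and the same sign for 862 genes (72.5%). With the wild-type IMP2 immunoprecipitate of that table the values were 0.64, 0.61 and 835 genes. Of the 32 genes called lower in IgG that were listed, 31 had a negative knockout ratio and 22 were called lower. Over all 1189 genes the knockout ratio was negative for 601 and positive for 588. The 32 include Hba-a1 and Hba-a2, whose counts are identical. All 4 of the listed genes called higher in IgG had a positive knockout ratio, and 3 were called higher: Aldh2, Dgkd and Znrf1.

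For single genes the values of both comparisons stand side by side. Aldh2 had an edgeR log2 ratio of 1.64 ± 0.38 in IgG and 1.16 ± 0.13 in the knockout table, where it was at 219 and 236 CPM in knockout total RNA and at 502 and 520.5 CPM in the immunoprecipitate. Rps20 fell in both, with -1.70 ± 0.43 in IgG and -2.23 ± 0.16 in the knockout table, and all 20 cytosolic ribosomal proteins listed there were called lower by edgeR, with a median of -1.29. Macf1 had 1.92 ± 0.38 in IgG but 0.36 in the knockout table, where edgeR did not call it (adjusted p = 0.126), at 190 and 207 CPM in knockout total RNA and 269 and 240 CPM in the immunoprecipitate. The 7 giant mRNAs listed had a knockout median of 0.17 and 1 was called higher. Selenof, an endoplasmic reticulum selenoprotein that was called lower in IgG at 57.7 and 66.3 against 18.8 CPM, was the 1 exception in sign, with 0.44 in the knockout table (edgeR adjusted p = 0.126). Whether the IgG and knockout ratios of a gene differ was not tested, since the tables were scaled separately.

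**Figure D5:**
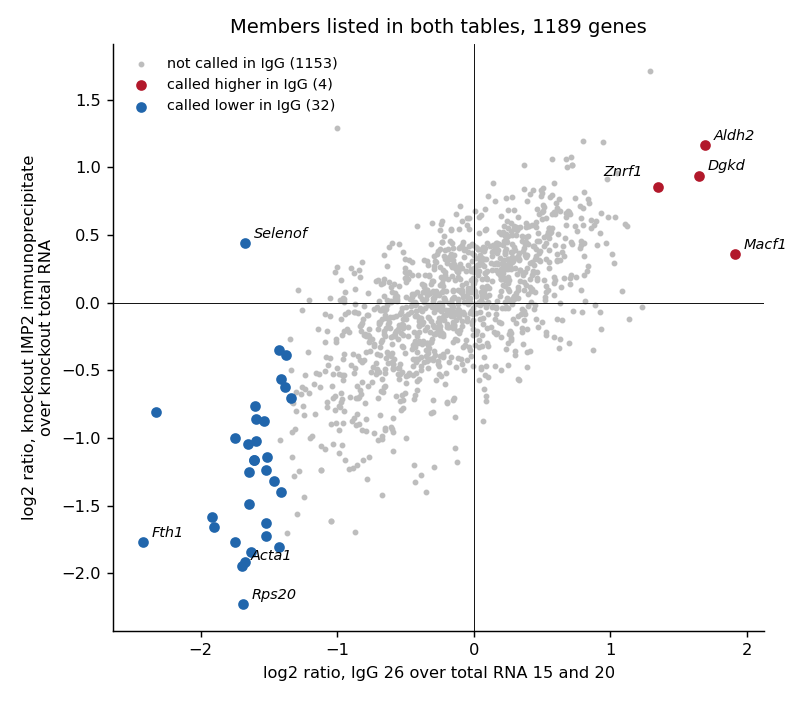
Log2 ratio of the IgG library to total RNA (horizontal axis) against the log2 ratio of the Imp2-/- immunoprecipitate to Imp2-/- total RNA (vertical axis, edgeR) for 1189 genes, with the 4 genes called higher in IgG in red and the 32 called lower in blue. Of the 32 blue points 31 lie below 0 on the vertical axis, and Macf1 lies far to the right at a knockout ratio of 0.36.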

How the data were processed

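The deposited tables hold whole-number read counts per RefSeq transcript, supplied by the authors without scaling. Per the submitters' processing notes, TopHat2 2.0.8, Cufflinks 2.1.1 and the mouse build mm10 were used, and the sources used here give neither the counting tool nor its strand setting. Libraries were made with a DNA library kit, per the labels' protocols. Of 12840 transcripts in the IgG table, 835 had no symbol, of which 813 were named by accession in RefSeq (GRCm38.p6), and 22 without a name, 7.39 to 15.8% of counts, were left out of library sizes. Of them, 1 noncoding transcript took nearly all. Symbols turned into dates (20 transcripts) were restored by accession. Transcripts of a gene share reads, and 55 of the genes compared had counts identical to another gene.

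Counts were tested with edgeR 4.0.16 in R 4.3.3 (TMM, filterByExpr, 8963 genes tested, 412 not), with limma 3.58.1 and DESeq2 1.42.0 as alternatives. The biological coefficient of variation was 25.1%. Total RNA libraries 15 and 20 differed by more than counting error (chi-square per degree of freedom 22.0, Pearson r of log2 counts 0.95 across genes). Nothing in the labels says that they came from separate animals. In data simulated for IgG against total RNA with 8963 genes, changes of log2 1, 2 and 3 were called for 0 of 67, 24 of 67 and 53 of 66 genes, with 1 false call among 8763. The simulation gave all 4 libraries the same spread, which cannot be checked for the lone IgG library. It therefore gives no error rate for the real calls. For 1144 of the 1189 genes of both tables the same transcript was kept.

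The genes compared and the 43 gene lists were chosen with earlier results of these data known. Named are Igf2bp2, Ucp1, the 10 largest and 10 smallest ratios among called genes (predicted genes and genes with identical counts left out), and up to 3 members at each end of a list. Genes outside this rule, such as all called members of a list, were chosen after their values were seen. RefSeq symbols or accessions matched 5399 of the 5403 genes, 4368 had a promoter entry and 5397 a span. Gene span replaced the planned protein length, for which no table was used here. A result of the test of IgG against the IMP2 immunoprecipitate is not reported here.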

Additional observations from a re-analysis of the deposited data

Results flagged for a closer look

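The direct edgeR test of the IgG library against the IMP2 immunoprecipitate of the same table picked out the genes below, given as log2 differences, IgG minus IMP2. Each immunoprecipitate is 1 library, so the spread within either was not measured. The IgG library is the one also tested against total RNA, so genes called in both tests have no separate support. Of the genes called higher over total RNA, Macf1 differed by 1.96 ± 0.48 (adjusted p = 0.0212), Adrbk2 by 1.98 ± 0.48 (adjusted p = 0.0231), Kcna2 by 2.54 ± 0.55 (adjusted p = 0.00426) and Eif5b by 2.05 ± 0.51 (adjusted p = 0.029). Of those called lower over total RNA, Cish differed by -2.74 ± 0.65 (adjusted p = 0.0171).

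Further genes that differed were not called against total RNA, and for most of them the IMP2 immunoprecipitate stood furthest from total RNA. Lama5, a laminin chain, differed by 3.48, with 31.0 and 28.8 CPM in total RNA, 4.72 CPM in the IMP2 immunoprecipitate and 53.2 CPM in IgG. Its IMP2 value rested on 6 counts, because the count minimum was not applied to library 25. Lpl differed by 2.88, Trim2 by 2.95, 9230105E10Rik by 2.67, Magt1 by 2.40 and Dbt, of branched-chain amino acid breakdown, by 2.11. The muscle genes Trdn and Ttn differed by 2.57 and 2.12, beside a sum of muscle markers of 6843 CPM in the IMP2 immunoprecipitate and 5268 CPM in IgG. Trdn rested on 14 counts in the IMP2 immunoprecipitate. On the other side, Mospd3 differed by -3.31, and the collagen VI chains Col6a1 and Col6a2 by -2.48 and -2.02. Col6a1 and Col6a2 were at 438 and 189 CPM in the IMP2 immunoprecipitate and 78.6 and 46.6 CPM in IgG. In the knockout table the log2 ratio of Mospd3 to total RNA was 1.29 in the knockout immunoprecipitate and 1.06 in the wild-type one. For Col6a1 these ratios were -0.19 ± 0.21 and -0.016 ± 0.22, so its gain in library 25 was not seen there. Col6a2 had no value in that table.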

How the results depend on the processing

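Over the 8963 genes tested, 0.48% were called higher and 1.53% lower with edgeR and TMM. The share called higher was 1.14% with library-size scaling, 0.0335% (3 genes) with DESeq2 and 0.112% (10) when a change of at least 1.5-fold was required, and the share called lower 0.457% (41) with DESeq2 and 0.446% (40) at 1.5-fold. The members at least 2-fold above both total RNA libraries (73) numbered 150 with library-size scaling, 145 and 10 at count minimums of 10 and 100, 420 at 1.5-fold, 9 at 3-fold, and 210 to 313 when either total RNA library was left out. The members at least 2-fold below both total RNA libraries (297) numbered 184 with library-size scaling, 134 at a minimum of 100, 837 at 1.5-fold, 56 at 3-fold and 502 to 690 with 1 total RNA library. The median of giant mRNAs was 1.14 with library-size scaling, 0.71 at a minimum of 100, and 0.90 to 0.99 with 1 total RNA library left out. The median of all members turned to 0.071 with library-size scaling, and that of the other mRNA-binding proteins (0.01) to -1.41 at a minimum of 100, -0.0059 without library 15 and -0.071 without library 20. In the knockout table, knockout calls were 246 higher with library-size scaling and 220 with DESeq2, and leaving out 1 library gave 47 to 138 higher and 87 to 188 lower. Wild-type calls there, 118 higher and 148 lower, were 192 higher with DESeq2, and 32 to 114 higher and 61 to 150 lower with 1 library left out. The cause of these changes was not tested, beyond fewer genes or samples entering. Leaving out a total RNA library left no residual degrees of freedom in the IgG table, so no test was run there. Protein length was not run. No paired analysis was possible because the labels do not match an immunoprecipitate to a total RNA sample.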
